A study of Mus musculus with 6 samples.

Results

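Pim1, Pim2 and Pim3 encode 3 closely related serine/threonine kinases. The genes described here are these 3 and 7 genes whose proteins are classical Pim substrates, namely Cdkn1a, Cdkn1b, Bad, Cdc25a, Cdc25c, Eif4b and Akt1s1. The 10 members were the rows of the authors' deposited table whose gene symbol equals one of these names, out of 24312 rows, and all 10 had a row that the authors had tested. RNA was measured in myeloid-derived suppressor cells (MDSCs), immature myeloid cells that restrain T cells. Precursors flushed from mouse femurs were cultured for 7 days, with GM-CSF at 40 ng/mL and IL-6 at 40 ng/mL. The labels give 3 wild-type (WT) and 3 Pim1-/- libraries, both under the strain name C57BL/6 and the surface phenotype CD11b+ Gr1+, made with a Smart-seq2 protocol for bulk RNA. The labels used here do not say which part of Pim1 the allele removes, whether the WT mice were littermates, or the animals' sex and age.

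Pim kinases are controlled mainly by how much of them a cell makes. GM-CSF, IL-6 and related cytokines act through JAK kinases and the transcription factors STAT3 and STAT5 to induce Pim transcription, and the kinase needs no activating phosphorylation by another enzyme. Pim activity is known to favour proliferation and survival. The kinase phosphorylates and restrains the cyclin-dependent kinase (CDK) inhibitors p21 (Cdkn1a) and p27 (Cdkn1b) and the pro-death protein BAD, acts on the CDK-activating phosphatases CDC25A and CDC25C, and phosphorylates the translation factor eIF4B and the mTORC1 inhibitor PRAS40 (Akt1s1). These are modifications of proteins, which RNA levels do not measure.

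Each gene had 1 pooled value per genotype, read as FPKM (fragments scaled to transcript length and library total), so no spread between libraries can be shown. A gene was called where the deposited q-value, the p-value adjusted over 11079 tested genes, was under 0.05. The error of a log2 fold change (Pim1-/- over WT) was taken as its ratio to the test statistic in the table, and the 95% interval is 1.96 errors on each side. The p-values in the table imply a narrower error for most genes. Calls were therefore also made by treating the test statistic as standard normal, here named the wider-error test. Of the tested genes 13.5% were called, 6.79% higher and 6.73% lower in Pim1-/-. In the wider-error test 3.31% were called, and these shares belong beside every count of called genes below. The table held Itgam, which encodes CD11b, at 138.8 and 151.8, and Ly6c2, of the Gr1 antigens, at 392.4 and 997.1 in WT and Pim1-/-. It also held macrophage genes at high levels in both genotypes, such as Cd68 at 898.5 and 970.5.

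The pools of the genotypes differed in ways that stand beside every result below. Of 12 neutrophil markers 9 were higher and 0 lower in Pim1-/-, and the wider-error test called 6 of them. Their summed FPKM was 2546 in WT and 9512 in Pim1-/-, and 867.8 and 1226 over the 10 markers other than S100a8 and S100a9. Most of the latter sums was Mmp8, at 735.1 and 767.9. Cxcr2, Mmp8 and Retnlg did not pass. Of 10 monocyte markers 5 were higher and 1 lower (2 and 1 in the wider-error test), with sums of 1196 and 1773, and of 803.6 and 776.0 without Ly6c2. Of 9 macrophage markers 0 were higher and 1 lower, with sums of 5665 and 6043. Of 8 dendritic cell markers 4 were tested, of which 2 were lower and 0 higher, with sums of 3213 and 2444. Most of these sums was Cd74, at 2629 and 1990. The defining Flt3 was at 0.0127 and 0, and the also untested Zbtb46, Dpp4 and Siglech reached at most 0.282. The T cell markers in the table reached at most 0.326 and 0.311 and the erythroid ones 0.253 and 0.207. The B cell markers reached at most 0.968 and 1.27, with Ms4a1 and Pax5 at 0. Those of mast cells and basophils were all under 1. Of 6 such markers 2 were tested, of which 1, Gata2, was lower, at 0.700 and 0.185 (q = 0.00399 in the authors' deposited table). The wider-error test did not call Gata2. The Y-linked Eif2s3y was at 6.79 in WT and 0.0191 in Pim1-/- and did not pass (q = 0.537 in the authors' deposited table), although the wider-error test called it. The same held for the Y-linked Ddx3y, at 2.56 and 0.0103 (q = 0.385 in the authors' deposited table). For both genes, unlike most, the deposited p-value implies a wider error than the test statistic does. The untested Kdm5d and Uty, also Y-linked, were at 0.454 and 0.462 in WT and at 0 in Pim1-/-. The WT pool thus held Y-linked RNA that the Pim1-/- pool almost lacked. Xist was at 5.21 and 7.21 and was called by the deposited q-value alone (q = 0.0262). The part of these differences in the results was not tested, and in a bulk pool fewer cells of a type and less RNA per cell cannot be told apart.

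Of the 10 members 4 were called, 2 lower and 2 higher in Pim1-/-, beside 13.5% of all tested genes. The calls include Pim1, the targeted gene itself, and among the 7 substrate genes 1 was higher and 1 lower. Pim1 and Eif4b fell, and Cdkn1a and Pim2 rose. The other 6 members did not pass, namely Pim3, Cdkn1b, Bad, Cdc25a, Cdc25c and Akt1s1. The median log2 fold change of the members was -0.05, beside 0.01 over all tested genes, and their median absolute log2 fold change was 0.45, beside 0.19. That median lies between Cdc25a and Cdkn1b, at log2 fold changes of 0.42 and -0.48, which did not pass. Their errors were 0.34 and 0.35, beside a median error of 0.29 over tested genes. At a q threshold of 0.01, which called 8.78% of tested genes, 3 members were called, without Pim2. Restricting the adjustment to genes whose mean FPKM reached 1, where 13.4% of genes passed, left 4 members called. The wider-error test, which called 3.31% of genes, called 2 members, Pim1 and Cdkn1a. It did not call Pim2 and Eif4b, with p-values of 0.622 and 0.266 adjusted by the Benjamini-Hochberg method in the model across all genes.

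**Figure D1:**
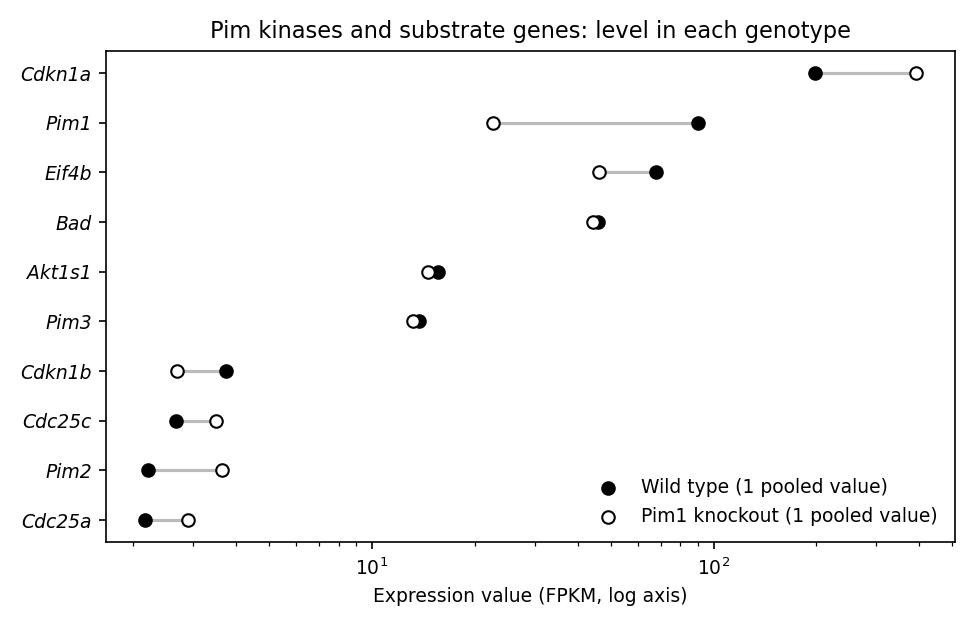
FPKM of the 10 members on a log axis, with filled points for the pooled WT value and open points for the pooled Pim1-/- value. Pim1 dropped from rank 2 to rank 4 in the order of levels, and Cdkn1a was the most abundant member in both genotypes.

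**Figure D2:**
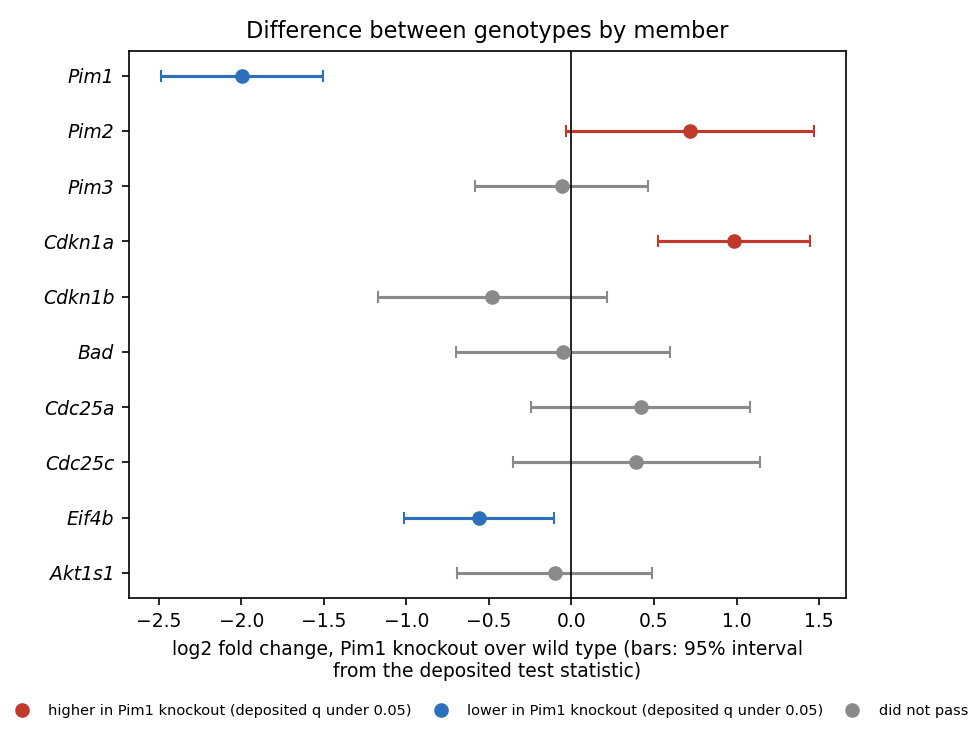
Log2 fold change of each member, Pim1-/- over WT, with 95% intervals from the deposited test statistic. The intervals of Pim1, Cdkn1a and Eif4b do not include 0, whereas that of Pim2, although called by the deposited q-value, runs from -0.03 to 1.47.

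The targeted kinase gene was still measured in the knockout pool, at a lower level. Pim1 was at 90.2 FPKM in WT and at 22.7 in Pim1-/-, which is 25.1% of the WT value (95% interval 17.9% to 35.3%). The log2 fold change was -1.99 with an error of 0.25 (q = 0.000831 in the authors' deposited table, the smallest value in it). This q-value is a floor that 667 tested genes share, so it does not rank the genes that carry it here and below. Of the 11049 tested genes with a finite log2 fold change, 69, Pim1 among them, or 0.624%, had one as low or lower. In WT its level was above that of 90.4% of tested genes, and in Pim1-/- above 72.5%. The pooled value does not show which part of the transcript the remaining reads came from.

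Pim2, which lies on the X chromosome, was the least abundant of the family. Its FPKM was 2.21 in WT and 3.64 in Pim1-/-, a 1.64-fold rise with a log2 fold change of 0.72 and an error of 0.38 (q = 0.0168 in the authors' deposited table). Pim3 was at 13.7 and 13.2 FPKM, with a log2 fold change of -0.06 that did not pass (q = 0.882 in the authors' deposited table). The 95% interval for Pim3 runs from 0.668-fold to 1.38-fold of WT, so a change within those bounds could not be told from none. The labels give no sex, but Y-linked RNA was present in the WT pool and almost absent from the Pim1-/- pool. For the X-linked Pim2 such a difference in sex between the pools and genotype cannot be told apart.

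Because FPKM is scaled to transcript length, the levels of the 3 kinases can be set side by side. In Pim1-/- this holds less surely, since the part of Pim1 that the allele removes is unknown and the length may not match. The sum of the 3 kinases was 106.2 in WT and 39.5 in Pim1-/-, or 37.2% of the WT sum. Pim1 made up 85.0% of that sum in WT and still 57.4% in Pim1-/-. The share of Pim3 was 12.9% in WT and 33.4% in Pim1-/-, and that of Pim2 was 2.08% and 9.21%. The rise of Pim2, 1.42 FPKM, amounted to 2.11% of the fall of Pim1, 67.6 FPKM. In the knockout pool the measured Pim1 RNA was thus still 1.72 times that of Pim3, compared with 6.57 times in WT.

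**Figure D3:**
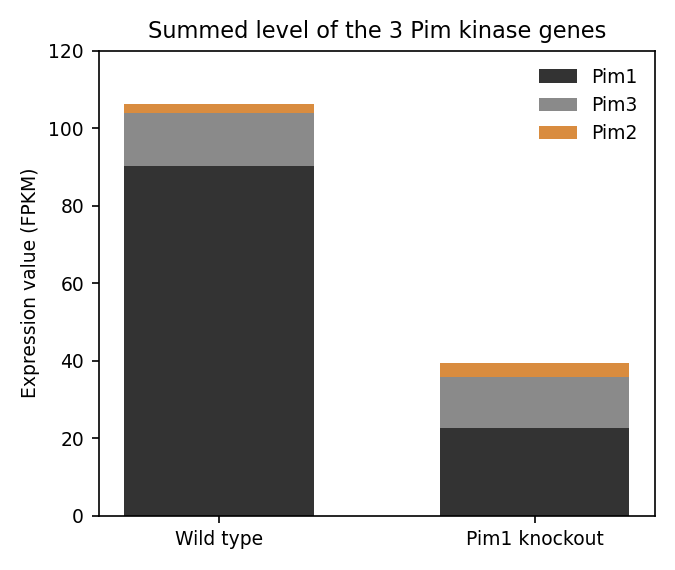
Stacked FPKM of Pim1, Pim3 and Pim2 in the pooled values of WT and Pim1-/-. The sum fell from 106.2 to 39.5, and the fall lies in the Pim1 segment, from 90.2 to 22.7.

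Pim1 and Cdkn1a are neighbours on chromosome 17. In the coordinates of the table Pim1 is at 29627990 to 29632404 and Cdkn1a at 29227931 to 29237667, with 390.3 kb between them. The submitters' processing notes name mm10, but none of the 10 member loci overlapped the gene's own position in GENCODE M21, an annotation of mm10. Of all matched symbols 12.8% overlapped, although 99.5% were on the same chromosome. These coordinates thus do not match mm10, and the build they follow is not stated. The RefSeq start regions of both genes are therefore given separately, in GRCm38.p6, together with that of Pim2 as the other called kinase. Each window holds 250 bases before and 50 bases from an annotated start, on the plus strand and 5′ to 3′. Capitals mark matches to the p53 half-site, and RefSeq lists a pair of starts for Cdkn1a.
Pim1, chr17:29490535-29490834: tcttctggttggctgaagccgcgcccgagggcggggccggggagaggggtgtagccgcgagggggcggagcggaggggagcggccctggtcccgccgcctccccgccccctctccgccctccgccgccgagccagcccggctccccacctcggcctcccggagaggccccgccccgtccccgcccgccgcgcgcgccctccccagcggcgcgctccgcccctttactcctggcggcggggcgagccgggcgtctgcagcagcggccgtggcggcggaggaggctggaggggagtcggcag
Cdkn1a, upstream start, chr17:29090729-29091028: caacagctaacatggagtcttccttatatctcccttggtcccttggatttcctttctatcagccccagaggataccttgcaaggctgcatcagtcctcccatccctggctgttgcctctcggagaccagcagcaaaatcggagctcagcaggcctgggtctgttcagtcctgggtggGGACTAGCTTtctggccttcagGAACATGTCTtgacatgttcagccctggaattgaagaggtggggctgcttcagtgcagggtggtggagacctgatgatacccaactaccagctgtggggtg
Cdkn1a, downstream start, chr17:29093519-29093818: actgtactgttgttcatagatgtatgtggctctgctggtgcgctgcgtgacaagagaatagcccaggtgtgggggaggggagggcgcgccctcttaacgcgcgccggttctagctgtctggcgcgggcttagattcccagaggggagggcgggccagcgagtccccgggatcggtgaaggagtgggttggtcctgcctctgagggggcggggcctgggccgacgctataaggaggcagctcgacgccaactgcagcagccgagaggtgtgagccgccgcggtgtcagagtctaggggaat
Pim2, chrX:7878056-7878355: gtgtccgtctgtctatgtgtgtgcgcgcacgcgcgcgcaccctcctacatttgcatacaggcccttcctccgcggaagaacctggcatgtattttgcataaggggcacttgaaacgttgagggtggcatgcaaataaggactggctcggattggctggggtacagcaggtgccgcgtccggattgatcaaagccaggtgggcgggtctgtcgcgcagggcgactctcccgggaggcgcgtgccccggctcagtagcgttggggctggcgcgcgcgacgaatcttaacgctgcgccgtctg

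Start windows on chromosome 18, where Cdc25c lies, were left out for the members but kept in the set of all RefSeq windows. A pair of motifs was searched on both strands in the 12 windows of the 9 other members. The STAT-binding GAS motif TTCNNNGAA was in none of them, and in 8.30% of all 32851 RefSeq windows of this length. The p53 half-site was in 8.36% of all windows. Of the members' windows it was in the upstream window of Cdkn1a, as GGACTAGCTT and GAACATGTCT, the latter beginning 51 bases before the start. It was also in a second start window of Pim1 that is not printed. Such matches describe letters within these windows and no binding was measured.

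Among the CDK inhibitors, the p21 gene rose and the p27 gene did not pass. Cdkn1a was at 198.3 FPKM in WT and 392.2 in Pim1-/-, a 1.98-fold rise (95% interval 1.44 to 2.72) with a log2 fold change of 0.98 and an error of 0.23. Its q-value in the authors' deposited table was 0.000831. This was the most abundant member, above 94.9% of tested genes in WT and 97.1% in Pim1-/-. Cdkn1b was at 3.74 and 2.69 FPKM, with a log2 fold change of -0.48, an interval from -1.17 to 0.22 and q = 0.101 in the authors' deposited table. Cdkn1a RNA was therefore 52.96 times that of Cdkn1b in WT and 146.1 times in Pim1-/-. Of the 5 other CDK inhibitor genes 3 were tested, and 1 passed, as lower. That was Cdkn2b, which encodes p15, at 2.35 and 1.10 FPKM (q = 0.00773 in the authors' deposited table), and the wider-error test did not call it.

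The genomic surroundings of Cdkn1a also differed. Within 1 Mb of Pim1, 22 other genes were tested, of which 7 were higher and 0 lower, or 31.8% beside the 13.5% of all genes. The 7 include Cdkn1a itself, and all start before Pim1 in the table's coordinates, as do most of the 22 tested genes. The wider-error test called 3 of them, Mapk13, Cdkn1a and Fgd2, and so not Trp53cor1, Rab44, Ppil1 or Pi16, where it called 3.31% of all genes. Trp53cor1, a p53-induced noncoding RNA gene just upstream of Cdkn1a, was at 0.240 and 0.606 FPKM (q = 0.0127 in the authors' deposited table), and the other neighbour on that side, the splicing factor gene Srsf3, was at 104.4 and 111.7 (q = 0.747). On the other side Rab44 was at 1.73 and 2.70 FPKM (q = 0.0114 in the authors' deposited table) and Ppil1 at 30.7 and 43.2 (q = 0.00871). Next to Pim1, Fgd2 rose from 0.437 to 3.47 FPKM (q = 0.000831 in the authors' deposited table), whereas Mtch1, at 46.1 and 36.8, Tmem217, at 0.812 and 0.221, and Tbc1d22b, at 3.22 and 2.79, did not pass. Within 10 Mb, 35 of 317 tested genes were higher and 29 lower, or 20.2%, and 7 and 13 in the wider-error test. Mapk13 and Pi16 were named after their values were seen. In these pools the absence of Pim1 and a chromosome segment carried along with its targeted allele cannot be told apart.

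**Figure D4:**
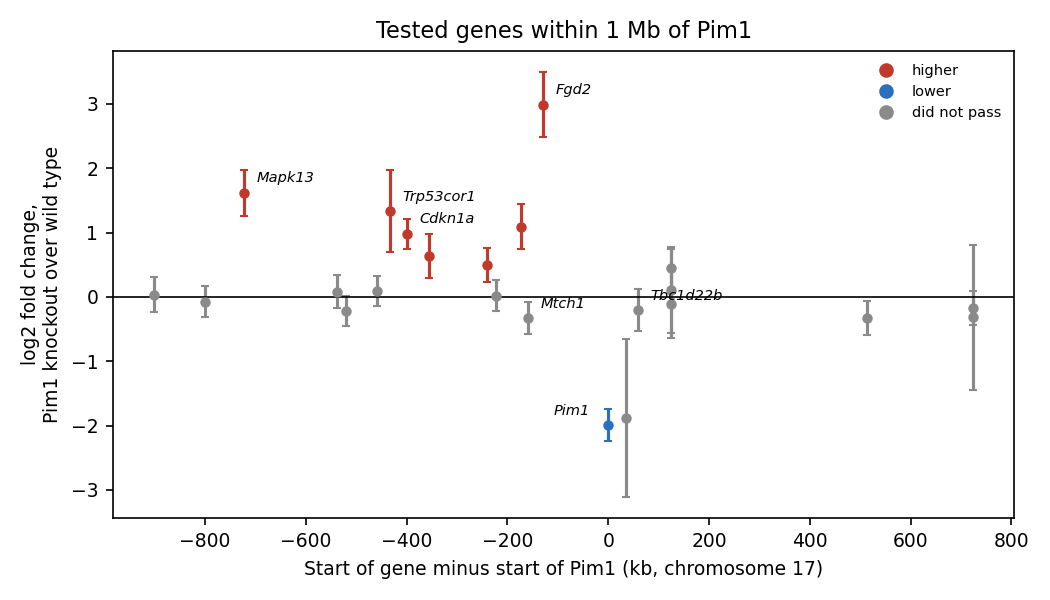
Log2 fold change, with its error, of the tested genes within 1 Mb of Pim1 against the distance of their start from that of Pim1. The 7 called neighbours, among them Cdkn1a at 0.98 and Fgd2 at 2.99, are all higher in Pim1-/-. They all lie on the left of Pim1, as do most tested neighbours, and 3 of the 7 were also called in the wider-error test.

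Cdkn1a is a classical target of the transcription factor p53, and other genes of that pathway moved in both directions. Of 12 tested genes 5 rose and 1 fell, beside 6.79% and 6.73% of all tested genes. Their median log2 fold change was 0.26, beside 0.01 over all tested genes. Phlda3, an inhibitor of AKT signalling, rose from 12.3 to 30.0 FPKM (2.44-fold, q = 0.000831 in the authors' deposited table). The RNA-binding protein gene Zmat3 rose from 2.37 to 4.02 FPKM (1.70-fold, q = 0.000831 in the authors' deposited table). The stress gene Gadd45a fell from 23.7 to 10.1 FPKM (q = 0.000831 in the authors' deposited table). Trp53 itself was at 64.6 and 67.7 FPKM and Mdm2, the ligase that degrades p53, at 15.5 and 16.4, and neither passed. Phlda3 and Gadd45a were the 2 genes of the list that the wider-error test also called. None of these 12 genes lies within 10 Mb of Pim1. Trp53 and Mdm2 were named after their values were seen.

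The CDC25 phosphatases, which remove inhibitory phosphates from CDKs, were low and did not pass. Cdc25a was at 2.16 FPKM in WT and 2.89 in Pim1-/-, with a log2 fold change of 0.42 and an interval from -0.24 to 1.08 (q = 0.150 in the authors' deposited table). Cdc25c was at 2.67 and 3.50 FPKM, with a log2 fold change of 0.39 and an interval from -0.36 to 1.14 (q = 0.270 in the authors' deposited table). Both values were above WT in the knockout pool, and both intervals include 0. The third phosphatase of the family, Cdc25b, was the most abundant, at 19.6 and 23.2 FPKM (q = 0.292 in the authors' deposited table). Of 6 tested genes made of Cdc25b and the kinases that oppose or control these phosphatases, such as Wee1 and Plk1, 0 were called by the deposited q-value or by the wider-error test.

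Several cyclin genes rose, whereas the CDK genes themselves did not pass. The median log2 fold change of 12 tested CDK and cyclin genes was 0.23. Of these genes 4 rose and 0 fell, beside 6.79% and 6.73% of all tested genes. The 3 D-type cyclins, which drive CDK4 and CDK6 in early cell cycle, were among them. Ccnd1 rose from 3.82 to 12.6 FPKM (3.30-fold, q = 0.000831 in the authors' deposited table). Ccnd3, the most abundant of them, rose from 69.0 to 124.8 FPKM (1.81-fold), and Ccnd2 from 17.7 to 26.4 (1.49-fold), both at q = 0.000831 in the authors' deposited table. Of the cyclins of later phases, Ccne1 rose from 13.6 to 20.1 FPKM, but Ccna2 was at 39.1 and 40.4, Ccnb1 at 33.2 and 36.2 and Ccnb2 at 50.8 and 55.5, and none of these last 3 passed. Cdk1 was at 33.7 and 36.5 FPKM and Cdk4 at 181.6 and 169.3. Ccne1, Ccna2, Ccnb1, Ccnb2, Cdk1 and Cdk4 were named after their values were seen. The wider-error test called Ccnd1 and Ccnd3, but not Ccnd2 and Ccne1.

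Bad, whose protein binds and blocks survival members of the BCL2 family until it is phosphorylated, was at 45.8 FPKM in WT and 44.3 in Pim1-/-. Its log2 fold change of -0.05 did not pass (q = 0.930 in the authors' deposited table), with an interval from 0.617-fold to 1.51-fold. The median log2 fold change of 10 tested genes of the BCL2 family was 0.36. Of these genes 5 rose and 0 fell, beside 6.79% and 6.73% of all tested genes. Those that rose include both survival and death genes. Bcl2l1, which encodes the BAD-binding survival protein BCL-XL, rose from 32.3 to 56.5 FPKM (1.75-fold), and Bcl2 rose from 1.01 to 1.79 (q = 0.000831 and 0.0136 in the authors' deposited table). The death genes Bid and Bax rose from 18.1 to 29.3 and from 226.2 to 325.4 FPKM, both at q = 0.000831 in the authors' deposited table. Mcl1 was at 65.1 and 53.9 FPKM and did not pass. The wider-error test called 1 gene of the 10, Bcl2l1. The 14-3-3 proteins, which hold phosphorylated BAD in the cytosol, had 0 of 6 tested genes called, the most abundant being Ywhaz at 266.7 and 303.1 FPKM (q = 0.455 in the authors' deposited table). Bcl2 and Mcl1 were named after their values were seen.

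Of the 2 members that act in translation and growth control, Eif4b fell and Akt1s1 did not pass. Eif4b, whose protein aids the eIF4A helicase in unwinding mRNA, was at 68.0 FPKM in WT and 46.2 in Pim1-/-. This is 67.9% of WT (95% interval 49.6% to 93.0%), with a log2 fold change of -0.56, an error of 0.23 and q = 0.000831 in the authors' deposited table. Akt1s1 was at 15.6 and 14.6 FPKM (log2 fold change -0.10, interval -0.69 to 0.49, q = 0.813 in the authors' deposited table). Among 10 tested genes of the cap-binding complex eIF4F and its regulators 0 rose and 1 fell, beside 6.79% and 6.73% of all tested genes. The fall was that of the poly(A)-binding protein gene Pabpc1, from 183.6 to 138.6 FPKM (q = 0.0199 in the authors' deposited table). The helicase gene Eif4a1 was at 385.3 and 361.3 FPKM and Eif4h, a relative of eIF4B, at 97.0 and 105.0, and neither passed. Of 11 tested genes of mTORC1, the complex that PRAS40 inhibits, and its regulators 0 rose and 1 fell, beside the same shares. That gene was Deptor, which encodes another inhibitor of mTOR, at 5.52 and 3.69 FPKM (q = 0.00156 in the authors' deposited table). The wider-error test called none of Eif4b, Pabpc1 and Deptor. Eif4a1 and Eif4h were named after their values were seen.

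In the cytokine signalling that induces Pim, with its feedback inhibitors, 2 of 15 tested genes rose and 6 fell. These counts stand beside 6.79% and 6.73% of all tested genes. The median log2 fold change of the 15 was -0.17. The list holds receptors for GM-CSF, IL-6 and related cytokines, JAK kinases, STAT factors and the SOCS feedback inhibitors. The receptor genes among the falls were Il6st, Csf2rb2 and Csf2ra. Il6st fell from 5.46 to 2.97 FPKM, Csf2rb2 from 169.4 to 117.9 and Csf2ra from 110.6 to 85.9. Their q-values in the authors' deposited table were 0.000831, 0.00156 and 0.0474. Csf2rb, at 349.4 and 276.9 FPKM, and Il6ra, at 10.6 and 12.8, did not pass (q = 0.0964 and 0.244 in the authors' deposited table). Stat3 fell from 36.5 to 26.0 FPKM (q = 0.00287 in the authors' deposited table), while Stat5a, at 4.33 and 3.85, and Stat5b, at 4.57 and 4.09, did not pass. The feedback genes divided. Socs2 fell from 59.5 to 34.5 FPKM and Socs3 from 91.7 to 61.5, whereas Socs1 rose from 51.4 to 87.1. Each was at q = 0.000831 in the authors' deposited table. Cish was at 158.6 and 201.5 FPKM and did not pass (q = 0.0625 in the authors' deposited table). Jak2 rose from 5.33 to 7.46 FPKM (q = 0.0180 in the authors' deposited table). Of the 8 calls 1, that of the feedback gene Socs2, held in the wider-error test, and none of a receptor, JAK or STAT gene. Csf2rb2, Csf2ra, Csf2rb, Il6ra, Stat3, Stat5a, Stat5b, Cish and Jak2 were named after their values were seen.

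Other genes whose proteins Pim kinases phosphorylate were called in equal numbers each way, 3 higher and 3 lower of 19 tested. Over all tested genes 6.79% were higher and 6.73% lower. The median log2 fold change of the list was 0.09. Besides Socs1 and Socs3, the chemokine receptor gene Cxcr4 rose from 2.97 to 5.85 FPKM (1.97-fold, q = 0.000831 in the authors' deposited table). Cxcr4 is also on the neutrophil marker list, of which 9 of 12 genes were higher. The remaining calls were a rise of Cbx3, a heterochromatin protein gene, from 28.9 to 43.1 FPKM, and falls of the transcription factor gene Foxo1, from 1.81 to 1.04, and of the transporter gene Abcg2, from 3.56 to 2.11. Myc, a partner of Pim1 in lymphoma, was at 23.7 and 29.5 FPKM (q = 0.130 in the authors' deposited table). The wider-error test called 0 genes of this list. Cbx3, Foxo1, Abcg2 and Myc were named after their values were seen.

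Kinases that share target sites with Pim had 1 gene higher and 1 lower of 10 tested, beside 6.79% and 6.73% of all tested genes. Their median log2 fold change was 0.03. Sgk1, a kinase induced by serum and glucocorticoids, fell from 170.6 to 99.1 FPKM (1.72-fold, q = 0.000831 in the authors' deposited table). Akt2 rose from 15.7 to 20.8 FPKM (q = 0.0349 in the authors' deposited table) and Akt1 was at 21.6 and 26.3 (q = 0.197). Of these genes the wider-error test called Sgk1. Of 5 genes of chaperones that bind Pim1 protein and of phosphatase PP2A subunits, which promote its loss, 1 fell and 0 rose. It was the chaperone gene Hspa8, at 1404 and 1051 FPKM (q = 0.0338 in the authors' deposited table), which the wider-error test did not call. Akt1 was named after its value was seen.

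**Figure D5:**
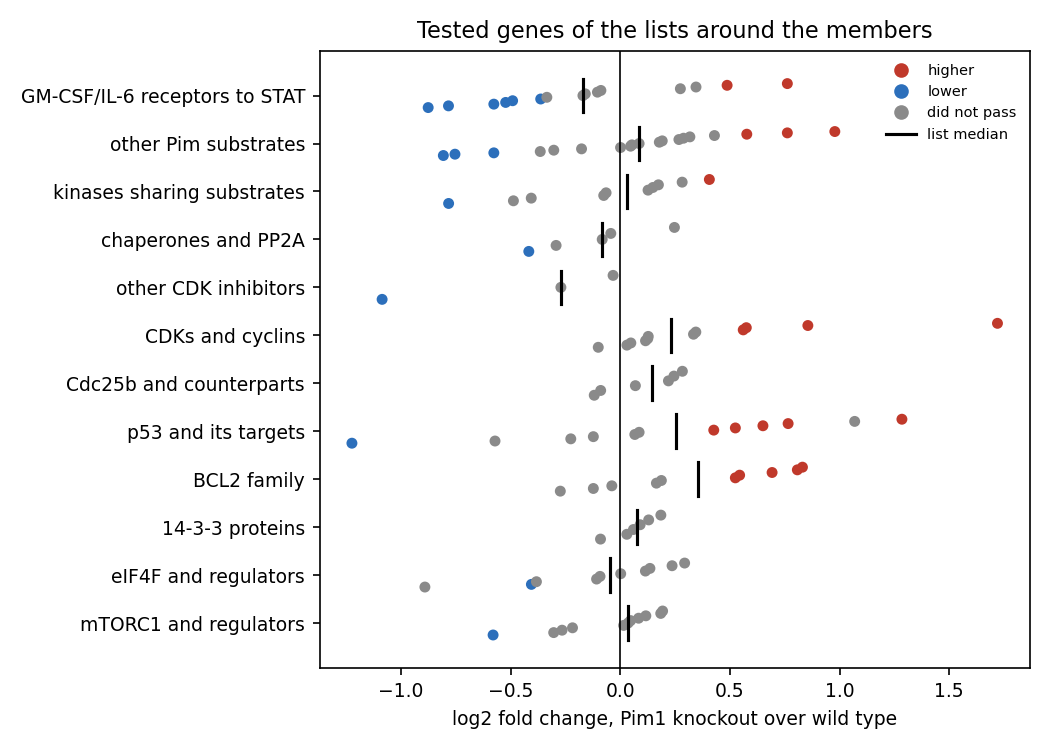
Log2 fold change, Pim1-/- over WT, of each tested gene in the 12 lists around the members, with list medians as black lines. List medians run from -0.27 for the other CDK inhibitors to 0.36 for the BCL2 family.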

How the data were processed

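Bulk RNA of 3 WT and 3 Pim1-/- libraries was compared in 1 table that the authors deposited, with 1 pooled value per gene and genotype. The authors' values were read as FPKM from the column layout, which is that of a Cuffdiff gene comparison; the header names neither unit nor software. The deposited columns further give a p-value, a q-value and a test statistic, per the file headers, the last of which served as a score. The submitters' processing notes name mm10, whereas aligner and annotation are not given in the sources at hand. The deposited log2 fold changes had 1182 cells that were not numbers, so log2 fold changes were computed from the FPKM values, with no pseudocount. Rows whose estimate had failed from too much coverage (6) were left out.

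The deposited q-values were checked against a Benjamini-Hochberg adjustment of the p-values over the 11079 tested genes. Depth per library is unknown, so no counting error is given. Labels do not say that the libraries came from separate animals beyond calling them biological replicates. Converted to normal deviates, the deposited p-values had a median ratio of 1.74 to the test statistic. The printed errors are thus mostly wider than those behind the q-values. For some genes, such as the Y-linked Eif2s3y and Ddx3y, they are narrower. The wider-error test, which treats the statistic as standard normal and was possible for 11049 genes, was run on simulated data. There the noise was drawn as normal with these same errors. That run therefore cannot show whether the deposited statistic is standard normal. Other alternatives were pseudocounts, centring, scaling, a minimum mean of 1 and a threshold of 0.01.

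The members, the 12 function lists and 10 marker lists were chosen with earlier results of these data known. Genes named were the members, up to 3 called genes per function list with the smallest q-value (otherwise the most abundant), and the 2 nearest tested genes on each side of Pim1 and Cdkn1a; others are said to be named after their values were seen. Genes named from marker lists were chosen after their values were seen. Promoter windows came from RefSeq (GRCm38.p6). Of 23180 matched symbols, 12.8% overlapped their GENCODE M21 gene by coordinates. Tools were Python 3.11.15, with scipy 1.17.1, numpy 2.4.6, pandas 2.3.3 and matplotlib 3.10.9.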

Additional observations from a re-analysis of the deposited data

How the results depend on the processing

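Of the 10 members, the log2 fold changes of 9 moved by less than their error at pseudocounts of 0.1, 1 and 5, after centring on the median of tested genes and after scaling to equal sums, which shifts every value by 0.07. The exception was Pim2, at 0.26 with a pseudocount of 5. The wider-error test, which treats the test statistic as a normal deviate, called 2 members in place of 4, and the calls of Pim2 (log2 fold change 0.72) and Eif4b (-0.56) were lost. It called 0 other Pim substrates in place of 6 and 0 other CDK inhibitors in place of 1. Of the cytokine signalling genes with their feedback inhibitors it called 1 in place of 8. It called 2 CDKs and cyclins in place of 4, 2 p53 pathway genes in place of 6 and 1 of the BCL2 family in place of 5. It also called 0 eIF4F genes, 0 mTORC1 genes and 0 chaperone and PP2A genes in place of 1 each, and 1 of the kinases sharing substrates in place of 2. Within 1 Mb of Pim1 it called 3 genes in place of 7, a check added after the data were seen. At a threshold of 0.01 the BCL2 family had 3 calls, the eIF4F list 0, the kinases sharing substrates 1 and the chaperone and PP2A list 0. With a minimum mean of 1 no member changed side and no count moved by over 1.5 times. Over all tested genes the wider-error test called 366 genes in place of 1498, and a threshold of 0.01 called 973. No paired analysis was possible because the table holds pooled values without replicate numbers, and leaving out single libraries was not run for the same reason. Depth per library is unknown.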
